A study of Mus musculus with 8 samples.

Results

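The 171 regions described here were the ATAC-seq peaks that a merged peak table assigned, by the nearest transcription start site, to mouse receptor genes of the olfactory and vomeronasal systems. They were chosen by gene symbol (Olfr, Vmn1r, Vmn2r and Taar genes) and made up 0.231% of 74090 merged peaks and 103 of 18215 genes. Of these, 129 peaks belonged to 74 Olfr genes, 23 to 11 Vmn1r genes, 15 to 14 Vmn2r genes and 4 to 4 Taar genes. A single peak was assigned to 74 of the genes and 2 or more to 29, with 8 peaks at the most, for Olfr1505.

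ATAC-seq uses a transposase that cuts open chromatin, so a peak's value measures accessibility and not expression. The cells were medullary thymic epithelial cells (mTEC) sorted from enzyme-digested thymus of C57BL/6 mice, in 4 populations of 2 libraries each, all of them CD45 negative and Epcam positive. mTEC-I was gated as MHCII low and Itgb4 positive, mTEC-II as MHCII high, mTEC-III as Ly6D positive, and mTEC-IV as MHCII low, Itgb4 negative and L1cam positive. Whether the replicates are different animals is not stated in the labels, and the spread that the p-values rest on may be technical.

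As background, odorant receptors (Olfr genes) are G-protein-coupled receptors, and an olfactory sensory neuron transcribes a single one of them from a single allele. Vmn1r and Vmn2r genes encode the pheromone receptor families of the vomeronasal organ, and Taar genes encode trace amine-associated receptors. The genes lie in large clusters that are packed as heterochromatin in most cell types. Medullary thymic epithelial cells are known for transcribing genes of many other tissues, by which developing T cells are tested for self-reactivity.

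Of the 12 member peaks within 1 kb of a start site, 6 had their highest mean in mTEC-I. Over all merged peaks, at any distance, this share was 33.5%, and the difference was not tested. The promoter windows of 4 genes with such a peak are shown because the results return to them: Olfr536 and Olfr107 were called higher in mTEC-I, Olfr1500 was called higher in mTEC-IV, and Olfr433 was not called in any population. They come from RefSeq (GRCm38.p6, whereas the peaks are on mm9) and run from 250 bases before to 50 after the annotated start, at chr7:140507269-140507568 on the minus strand, chr17:37405227-37405526 on the plus strand, chr19:13828345-13828644 on the minus strand and chr1:174041683-174041982 on the plus strand. Capitals mark the first 3 transcribed bases and, in Olfr433 alone, a match to the homeodomain motif TAATTA 112 bases before the start. The windows follow the start and not the peaks. By distance, the Olfr433 peak, 963 bases before the start, and the Olfr536 peak at 467 bases lie outside them, so the marked motif is not under the Olfr433 peak.
Olfr536: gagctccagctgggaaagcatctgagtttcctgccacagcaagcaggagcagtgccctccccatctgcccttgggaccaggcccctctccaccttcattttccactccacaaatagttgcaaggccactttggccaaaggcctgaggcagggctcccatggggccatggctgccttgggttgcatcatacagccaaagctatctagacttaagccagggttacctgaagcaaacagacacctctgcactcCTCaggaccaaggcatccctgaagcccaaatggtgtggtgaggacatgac
Olfr107: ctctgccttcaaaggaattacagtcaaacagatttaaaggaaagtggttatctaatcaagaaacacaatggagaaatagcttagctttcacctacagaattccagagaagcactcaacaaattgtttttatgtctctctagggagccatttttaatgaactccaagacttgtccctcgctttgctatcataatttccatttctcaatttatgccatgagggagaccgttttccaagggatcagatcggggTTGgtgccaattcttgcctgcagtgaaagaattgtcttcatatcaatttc
Olfr1500: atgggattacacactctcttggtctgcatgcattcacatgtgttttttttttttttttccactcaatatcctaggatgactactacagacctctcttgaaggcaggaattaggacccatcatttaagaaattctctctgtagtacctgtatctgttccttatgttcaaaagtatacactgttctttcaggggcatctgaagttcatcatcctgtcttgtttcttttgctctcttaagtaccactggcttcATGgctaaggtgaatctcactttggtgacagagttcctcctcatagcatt
Olfr433: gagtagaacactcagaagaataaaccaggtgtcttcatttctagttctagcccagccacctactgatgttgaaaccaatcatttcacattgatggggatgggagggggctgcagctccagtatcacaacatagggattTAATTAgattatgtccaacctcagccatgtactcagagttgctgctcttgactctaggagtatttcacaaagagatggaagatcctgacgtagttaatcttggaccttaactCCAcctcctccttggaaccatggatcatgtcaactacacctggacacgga

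In Olfr1500 the annotated start is an ATG, so the gene model begins at the start codon. An ATG stood at the annotated start of 76.4% of 1285 receptor promoter windows, against 2.96% of 31566 windows of other genes in this annotation. Receptor windows had a median of 35.7% GC and 1 CpG dinucleotide, against 53.3% GC and 8 CpG in the others. The 4 windows shown held 56.3% GC (Olfr536), 39% (Olfr107), 39.7% (Olfr1500) and 45% GC (Olfr433).

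Motifs were searched on both strands as descriptions of the letters only, and were chosen after peak values had been seen. The homeodomain core TAATTA was present in 16.5% of receptor windows and 5.29% of all 32851 windows. The AP-1 motif TGANTCA was present in 15.7% of receptor windows and 7.81% of all, and the octamer ATGCAAAT in 2.88% and 1.74%. A window that held several of these motifs was counted for each.

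Few receptor genes had any assigned peak. Of 1482 protein-coding receptor genes in RefSeq, 102 had one (6.88%), against 15671 of 20418 other protein-coding genes (76.8%). The share was 6.58% of 1110 Olfr genes, 4.76% of 231 Vmn1r genes, 11.3% of 124 Vmn2r genes and 26.7% of 15 Taar genes. For comparison, 19 of 35 bitter taste receptor (Tas2r) genes had a peak (54.3%).

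The member peaks lay mostly outside genes. Intergenic annotations covered 144 of 171 (84.2%, against 37.3% of all merged peaks) and promoter annotations 9 (5.26%, against 18.3%). By distance from the start site, 12 lay within 1 kb (7.02%, against 24.1% of all), 49 at 1 to 10 kb, 91 at 10 to 100 kb (53.2%, against 45.3%) and 19 beyond 100 kb. Assignment to the nearest start site does not show that a peak acts on that gene.

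Repeat elements were frequent under these peaks. Long terminal repeats of endogenous retroviruses were annotated for 20 (11.7%, against 3.89% of all merged peaks), LINE elements for 8, SINE elements for 7, satellite DNA for 4 (2.34%, against 0.0715%) and tRNA genes for 3 (1.75%, against 0.0499%). Of the 27 member peaks inside an annotated transcript, 19 were in a receptor gene and 8 in another gene. These included 3 in introns of Rap1gap2 that were assigned to Olfr412.

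The libraries held 3606440 to 10374600 tags, and 8.44% to 19.7% of them lay in merged peaks, with the lowest shares in mTEC-III (8.44% and 11%). The sort was visible at marker genes. Of 10 tested tuft cell markers 9 were higher in mTEC-IV. Trpm5 and Avil among them reached 10 scaled tags in mTEC-IV alone and were tested only for that reason, so their calls add no support. Basal mTEC markers were higher in mTEC-I at 6 of 6 and Aire-stage markers in mTEC-II at 7 of 8. Ly6d, the gene of the mTEC-III gate, was not called in any population, with 53.3 and 68.2 scaled tags in mTEC-III and 26.1 to 56.4 in the other 6 libraries. All values below are tags per 10000000 total tags of the library, scaled further by TMM factors and called scaled tags, with replicate 1 before replicate 2, and log2 differences are on log2(value + 1), which understates the change of low features and, where a group is at 0, depends on the added 1. With the authors' scaling to total tags alone, the median log2 difference of all tested peaks moved to -0.73 in mTEC-III and to 0.46 in mTEC-I, against 0.01 and -0.09 with TMM.

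**Figure D1:**
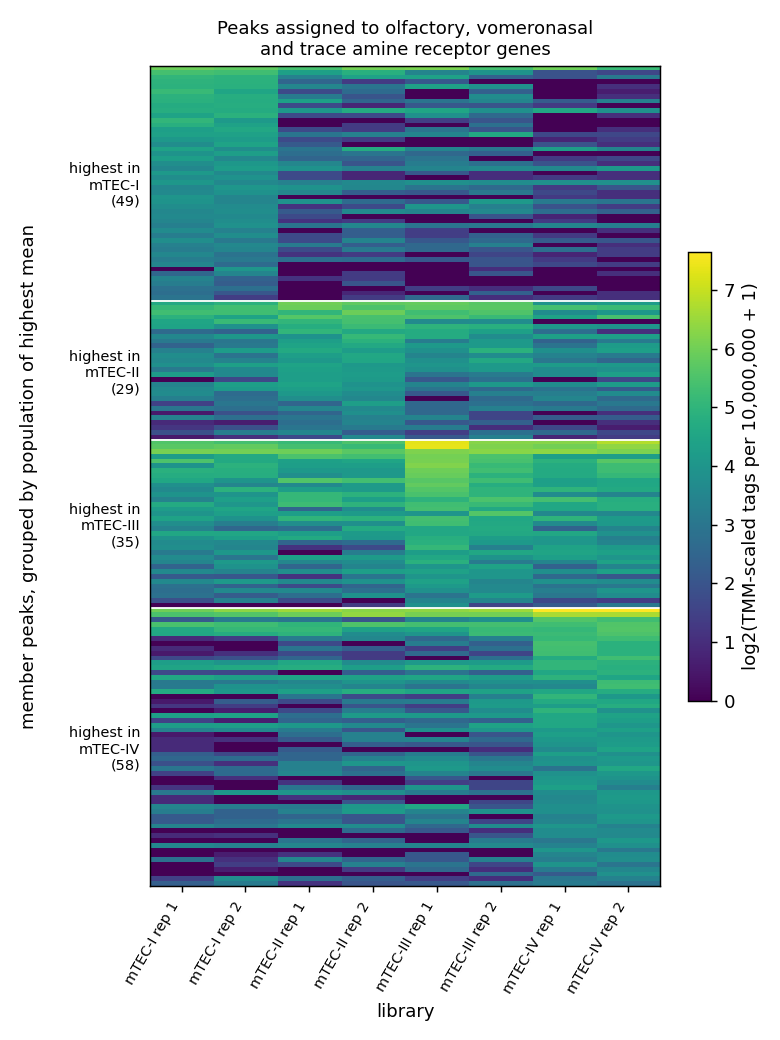
Heat map of the 171 member peaks (rows, grouped by the population with the highest mean) in the 8 libraries (columns), with colour giving log2(scaled tags per 10000000 + 1). The largest blocks are the 58 peaks highest in mTEC-IV and the 49 highest in mTEC-I, and between 14 and 26 of the 171 peaks had no read end in a given library.

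Member peaks were highest on average in mTEC-IV for 58 (33.9%, against 33.5% of all merged peaks), in mTEC-I for 49 (28.7%, against 33.5%), in mTEC-III for 35 (20.5%, against 14.4%) and in mTEC-II for 29 (17%, against 18.5%). The 35 highest in mTEC-III include all 12 peaks of Vmn1r2 and Vmn1r238, near chromosome starts, whose rank depends on the scaling and is described below. Of the other 159 member peaks, 23 were highest in mTEC-III, a share near that of all merged peaks. Summed over all 171, member peaks held 0.142% to 0.197% of the tags in merged peaks. The highest share was in mTEC-III replicate 1 and the lowest in mTEC-II replicate 1. The median member peak stood at 6.92 to 12.7 scaled tags across libraries, against 9.22 to 12.2 for all merged peaks. A single read end was worth 0.482 to 1.39 deposited tags per 10000000 in these libraries, so a typical value rests on few reads. How reads that fit several near-identical copies were treated is not given in the sources used here, and values at receptor paralogs and repeats are uncertain for that reason.

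Each population was then compared with the mean of the other 3, with limma over all features for which 2 or more libraries reached 10 tags per 10000000. A feature is said to be called, higher or lower, where its Benjamini-Hochberg adjusted p over all tested features was at most 0.05. The filter kept 140 of 171 member peaks (81.9%, against 79.4% of all) and 89 of 103 member genes, each gene's value being the sum of its assigned peaks. Of the 140, 77 peaks were called in at least 1 population (55%, against 53.5% of 58817 tested peaks). Of the 89 genes, 51 were called (57.3%, against 52.5% of 17640).

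In mTEC-I, 26 member peaks were higher (18.6%, background 18.1%) and 26 lower (18.6%, background 19.3%). In mTEC-IV, 29 were higher (20.7%, background 17.5%) and 25 lower (17.9%, background 18.4%). In mTEC-II, 4 were higher (2.86%, background 5%) and 10 lower (7.14%, background 3.54%), and in mTEC-III 7 were higher (5%, background 2.42%) and 1 lower (0.714%, background 1.48%). The shares in mTEC-I and mTEC-IV were near those of all peaks. Of the 10 peaks lower in mTEC-II, 8 belonged to Vmn1r2 and Vmn1r238, as did 3 of the 7 higher in mTEC-III.

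Counts of summed genes differed from those of peaks in part. In mTEC-I, 16 were higher (18%, background 17%) and 22 lower (24.7%, background 18.6%). In mTEC-IV, 23 were higher (25.8%, background 19.3%) and 13 lower (14.6%, background 13.6%). mTEC-II had 4 higher and 5 lower (backgrounds 4.83% and 5.75%), and mTEC-III 6 higher and 1 lower (backgrounds 3% and 4.5%).

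Many of the higher calls are of features that passed the filter only through the libraries in which they are high, and so had to differ. Without its own 2 libraries, 20 of the 26 peaks higher in mTEC-I and 24 of the 29 higher in mTEC-IV would not have passed, nor 9 of the 16 genes in mTEC-I and 16 of the 23 in mTEC-IV. In mTEC-II this held for 1 of 4 peaks and in mTEC-III for 0 of 7. Lower calls of such members in another population are set in part against the same high libraries, so their p-values add no support either. These lower calls include Olfr157, Olfr996, Olfr920, Olfr521 and Olfr49 in mTEC-I, Olfr536 in mTEC-II, and Olfr107, Olfr297 and Taar1 in mTEC-IV. For such members the per-library values are the description, and the p-values add no support; they include Olfr536, Olfr107, Olfr543, Olfr1120, Olfr297, Olfr65, Vmn1r20, Taar1 and Taar4 in mTEC-I, Olfr429 in mTEC-II, and Olfr157, Olfr1500, Olfr1499, Olfr1414, Olfr714, Olfr920, Olfr995, Olfr996, Olfr444, Vmn2r85 and Vmn1r43 in mTEC-IV.

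**Figure D2:**
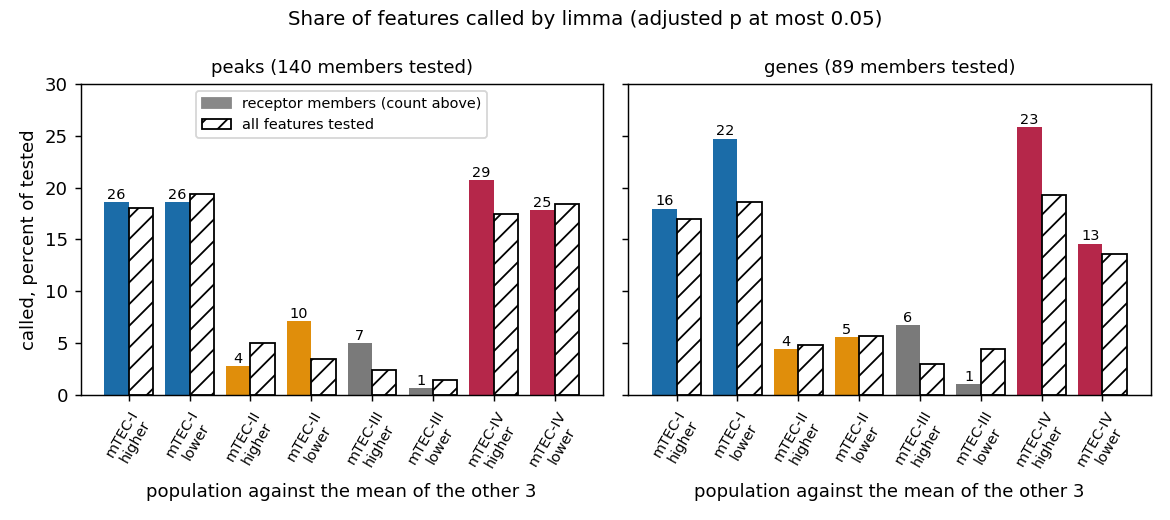
Percent of tested member peaks (left) and member genes (right) called higher or lower by limma in each population against the mean of the other 3 (coloured bars, with counts above), beside the percent of all tested peaks or genes (hatched bars). In mTEC-I and mTEC-IV the coloured bars of the 140 peaks stand within a few percentage points of the hatched ones (26 and 26, 29 and 25 peaks).

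These counts depended on scaling and on single libraries. With the authors' scaling, mTEC-I had 35 peaks higher and 14 lower (backgrounds at that scaling 32.6% and 12.3%), mTEC-II 6 and 6 (7.61% and 3.2%) and mTEC-III 0 and 27 (0.719% and 30.6%), so the shift was shared by all peaks. Among genes it gave 23 higher and 11 lower in mTEC-I (backgrounds 39.7% and 4.84%), and 0 higher and 32 lower in mTEC-III (0.334% and 75.5%). Over all 103 member genes or the 89 tested with TMM, the mTEC-I higher and mTEC-III lower calls were smaller shares than these backgrounds. The mTEC-I lower calls were a larger share than theirs. Without mTEC-I replicate 1 or 2, the peaks higher in mTEC-I numbered 3 or 1, and without mTEC-IV replicate 1 or 2 those higher in mTEC-IV numbered 5 or 4. Calls over all peaks fell likewise, from 10623 to 1027 or 958 in mTEC-I and from 10290 to 945 or 1596 in mTEC-IV.

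Among the 6 pairs of populations, mTEC-I and mTEC-IV differed at the most member peaks, with 28 higher in mTEC-I (20%, background 21%) and 32 higher in mTEC-IV (22.9%, background 20.5%). mTEC-II and mTEC-III differed at 0 member peaks by limma (backgrounds 0.0017% and 0.0136%). At an unadjusted p under 0.05, 7 were higher in mTEC-II and 22 in mTEC-III. Of the 89 summed genes, limma called 3 higher in mTEC-III (3.37%, background 0.374%) and 0 higher in mTEC-II (background 0.0964%). On read ends, edgeR called 7 member peaks higher in mTEC-III and 0 higher in mTEC-II (backgrounds 0.376% and 0.0599%), and DESeq2 2 and 0 (0.0783% and 0.00405%). Peaks higher in mTEC-I than in each of the other 3 populations numbered 13 (9.29%, background 4.59%), and those higher in mTEC-IV than in each other 17 (12.1%, background 7.5%). Those lower than in each other population numbered 3 in mTEC-I (2.14%, background 4.04%) and 5 in mTEC-IV (3.57%, background 6.02%). For mTEC-II and mTEC-III, limma gave 0 member peaks in either direction. The backgrounds were 0% and 0.0034% for mTEC-II and 0.0051% and 0.0017% for mTEC-III. Among summed genes, Vmn1r2 was higher in mTEC-III, and Vmn1r238 lower in mTEC-II, than in each other population. Their peaks lie near chromosome starts and are described below, and the share over all genes is not given here.

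By the libraries alone, with no test, both mTEC-I libraries lay above the other 6 at 24 of the 140 peaks (background 18.4%) and below them at 17 (background 14.6%). Both mTEC-IV libraries lay above at 31 (background 19.9%) and below at 15 (background 14.1%). For mTEC-II these counts were 8 and 9 (backgrounds 6.18% and 3.79%), and for mTEC-III 11 and 3 (backgrounds 4.19% and 4.12%). As shares of the 140 peaks these are 17.1% and 12.1% for mTEC-I, 22.1% and 10.7% for mTEC-IV, 5.71% and 6.43% for mTEC-II, and 7.86% and 2.14% for mTEC-III.

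The Olfr genes highest in mTEC-I were led by Olfr536, an odorant receptor gene whose nearest coding gene of another kind on its higher-coordinate side is Cyp2e1, a cytochrome P450. Its 2 peaks, both annotated as promoter, lay 467 and 106 bases before the start (chr7:147693609-147693760 and chr7:147693260-147693386 on mm9). Summed, they held 47.3 and 26.6 scaled tags in the mTEC-I libraries, 0 and 0 in those of mTEC-II, 1.66 and 3.05 in those of mTEC-III and 1.45 and 1.05 in those of mTEC-IV. Both mTEC-I libraries stood above all others. The log2 difference was 4.23 ± 0.61 (SE, limma adjusted p = 2.33e-05). Olfr536 was also called lower in mTEC-II (-2.69 ± 0.61, adjusted p = 0.00759), a call lost without mTEC-II replicate 1 (adjusted p = 0.056). At the peak 467 bases upstream, the counts of 0 in both libraries put mTEC-II at least 7.33-fold and mTEC-IV at least 12.2-fold below the mean of the other 6 libraries, on deposited values, taking 3 read ends over the 2 libraries as the limit that a count of 0 allows. Such limits cover counting error only. Here the mean of the other 6 rests mostly on mTEC-I, and Olfr536 was near 0 in all other populations. It passed the filter only through mTEC-I, so the lower call in mTEC-II adds no support.

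Olfr107, on chromosome 17, lies in a stretch of receptor genes between the non-classical MHC genes H2-M3 and H2-M2 and was also highest in mTEC-I. Its promoter peak at +30 (chr17:37542382-37542522) held 15.9 and 17.9 scaled tags in the mTEC-I libraries, 2.3 and 1.54 in those of mTEC-II, 0 and 0 in those of mTEC-III and 0.724 and 1.59 in those of mTEC-IV. A further peak 10809 bases upstream (chr17:37531513-37531714) held 27.4 and 20.1 tags in mTEC-I, at most 6.11 in any other library, and none in either mTEC-IV library. Over its 3 peaks the gene was higher in mTEC-I by 3.47 ± 0.52 (adjusted p = 3.56e-05) and lower in mTEC-IV by -2.11 ± 0.52 (adjusted p = 0.00357).

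Olfr543 was the class I gene with the largest difference. Class I receptors are the fish-like odorant receptors whose genes form 1 cluster on chromosome 7, and 5 of the 74 Olfr genes belonged to it, with 8 peaks. The 2 Olfr543 peaks summed to 37.6 and 47.2 scaled tags in mTEC-I and to at most 5.76 in any other library, a difference of 3.57 ± 0.58 (adjusted p = 7.51e-05). Of the 5 class I peaks tested, 2 were higher in mTEC-I and 0 lower (backgrounds over all peaks 18.1% and 19.3%), and both were those of Olfr543. They lay 1653 and 1795 bases before the start, each from the list of a different mTEC-I library. Both passed the filter only through mTEC-I, so the count adds no support.

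Retroviral repeats were under peaks that were higher and peaks that were lower. The peak 7120 bases upstream of Olfr1120 (chr2:87190413-87190553, RMER21B) held 34.5 and 21.7 scaled tags in mTEC-I and 0 to 5.37 elsewhere (3.60 ± 0.67, adjusted p = 0.00032). The Vmn1r20 peak (chr6:57408374-57408542, RMER5) held 16.8 and 11.4 in mTEC-I and 0 to 3.34 elsewhere (2.77 ± 0.67, adjusted p = 0.003). Over the 17 tested member peaks with a long terminal repeat, mTEC-I was higher at 5 and lower at 6 (backgrounds over all peaks 18.1% and 19.3%), and mTEC-IV higher at 5 and lower at 5 (17.5% and 18.4%).

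Olfr297, in a cluster on chromosome 7 with Olfr294 and Olfr295, was higher in mTEC-I by 2.95 ± 0.59 (adjusted p = 0.000607), with 19 and 23.3 scaled tags against 0 to 6.67. Olfr65 was higher by 2.64 ± 0.81 (adjusted p = 0.0151), but it rested on 2 weak peaks and lost the call without mTEC-IV replicate 1 (adjusted p = 0.0522) and with DESeq2 (adjusted p = 0.182).

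**Figure D3:**
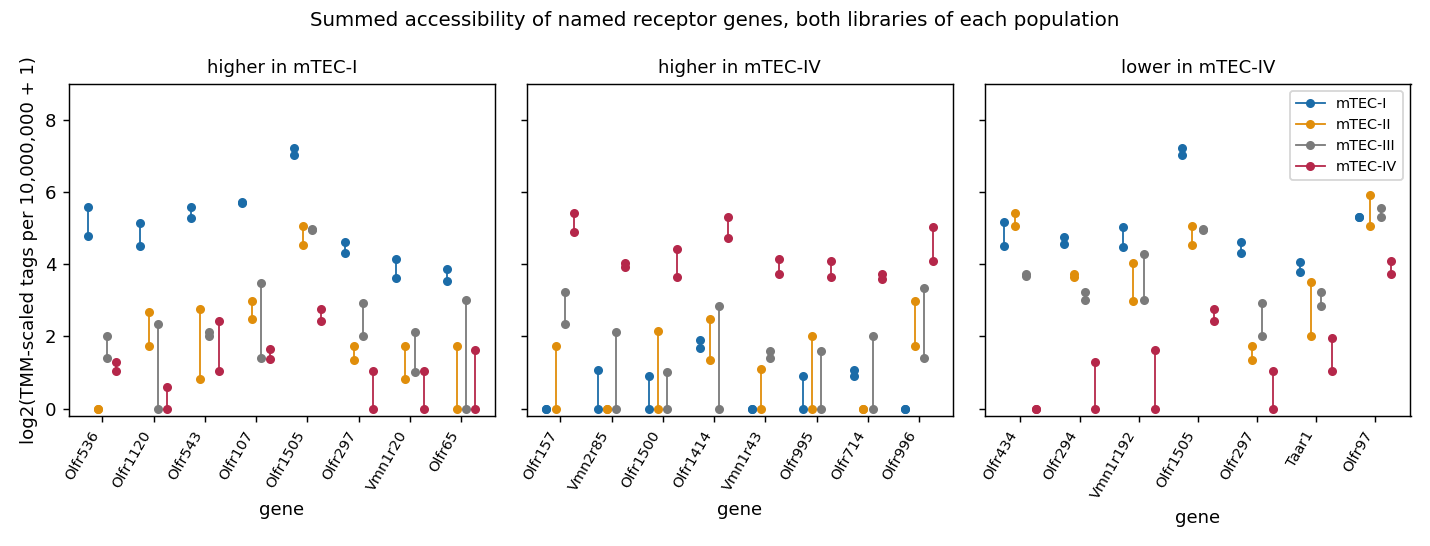
Summed accessibility, as log2(scaled tags per 10000000 + 1), of the receptor genes with the largest differences: the 8 higher in mTEC-I (left), the 8 higher in mTEC-IV (middle) and the 7 lower in mTEC-IV (right). Each colour is a population, each point a library, and a line joins the 2 libraries of a population. In the left panel both mTEC-I points lie above all others, and in the middle panel both mTEC-IV points do.

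The gene with the most assigned peaks, Olfr1505, was called in both directions. Its 8 peaks lay 136814 to 329038 bases from its start, in the interval towards Tle4, a transcriptional corepressor gene. Summed, they held 148 and 128 scaled tags in the mTEC-I libraries, 32.3 and 22.3 in those of mTEC-II, 30 and 30.5 in those of mTEC-III and 4.35 and 5.82 in those of mTEC-IV. Both mTEC-I libraries were above and both mTEC-IV libraries below all others, and mTEC-II and mTEC-III overlapped. The gene was higher in mTEC-I by 3.00 ± 0.27 (adjusted p = 1.19e-07) and lower in mTEC-IV by -3.03 ± 0.27 (adjusted p = 6.14e-08), and both calls held without any 1 library.

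Of the 6 Olfr1505 peaks tested, 6 were higher in mTEC-I and 3 lower in mTEC-IV (backgrounds over all peaks 18.1% and 18.4%). All 6 but the peak at 307711 bases passed the filter only through mTEC-I, so their calls, higher or lower, add no support. The peak at 209600 bases (chr19:14203042-14203182, in a SINE) held 30.1 and 28.7 scaled tags in mTEC-I and 0 and 0 in mTEC-IV. The peak at 307711 bases (chr19:14301134-14301312) held 29.6 and 28.2 in the mTEC-I libraries, 10.37 and 6.91 in those of mTEC-II, 20 and 13.2 in those of mTEC-III and 0 and 1.05 in those of mTEC-IV. Beyond this block the peaks were assigned to Tle4, an interval looked at after these values were seen. Of the 14 tested Tle4 peaks, mTEC-I was higher at 3 and lower at 6, and mTEC-IV higher at 8 and lower at 2. The 2 Tle4 peaks nearest to the block were both higher in mTEC-I and lower in mTEC-IV, and the first held 31.8 and 30.9 scaled tags in the mTEC-I libraries, 32.3 and 26.1 in those of mTEC-II, 26.7 and 17.3 in those of mTEC-III and 0 and 2.64 in those of mTEC-IV.

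**Figure D4:**
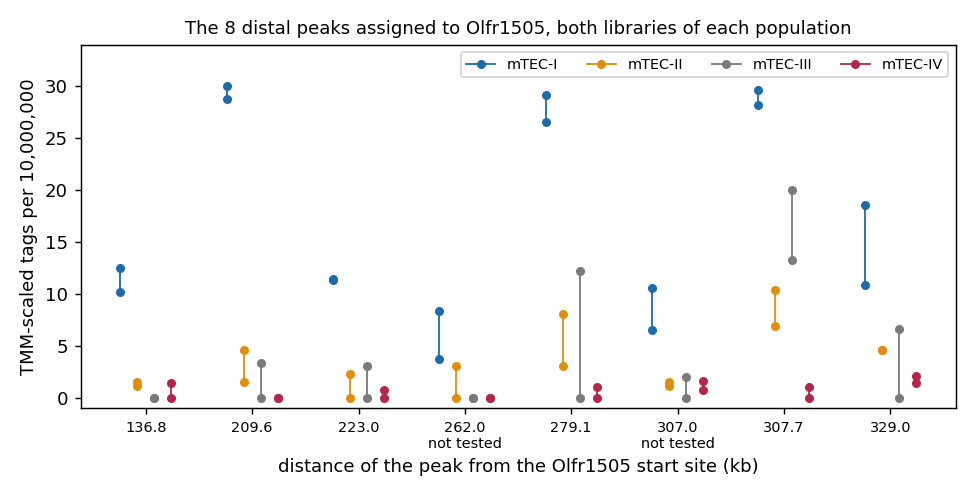
Scaled tags per 10000000 in the 8 peaks assigned to Olfr1505, by their distance from its start site in kb, with a point for each library and a colour for each population. The mTEC-I points lie highest at each of the 8 peaks, reaching 30.1, and the mTEC-IV points lie at 2.12 or below.

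Receptor genes higher in mTEC-IV were led by Olfr157, whose only peak lay in its 3′ untranslated region (chr4:43847739-43847867). It held 41.4 and 28.6 scaled tags in the mTEC-IV libraries, 0 and 0 in those of mTEC-I, 2.3 and 0 in those of mTEC-II and 8.33 and 4.07 in those of mTEC-III. Both mTEC-IV libraries stood above all others (3.93 ± 0.62, adjusted p = 5.55e-05). The gene was also lower in mTEC-I (-2.93 ± 0.62, limma adjusted p = 0.00103), but it passed the filter only through mTEC-IV, so this call adds no support. Counts of 0 in both mTEC-I libraries put it at least 14.6-fold below the mean of the other 6 libraries by the same limit. That mean rests mostly on mTEC-IV.

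Olfr1500, with its peak 252 bases before the start (chr19:13903064-13903208), was the gene with a promoter peak that was higher in mTEC-IV. It held 11.6 and 20.6 scaled tags there and 0 to 3.46 in the other libraries (3.37 ± 0.76, adjusted p = 0.00171), and it passed the filter only through mTEC-IV. Its neighbour Olfr1499 was also higher in mTEC-IV, at 23.2 and 29.6 against 0 to 6.67 (2.95 ± 0.60, adjusted p = 0.000672). Both lie in the Olfr cluster of chromosome 19 whose far end holds the Olfr1505 peaks that were lower in mTEC-IV.

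Vomeronasal genes were among those higher in mTEC-IV. An intronic peak of Vmn2r85 (chr10:129856625-129856743) held 15.2 and 14.3 scaled tags in mTEC-IV and 0 to 3.34 elsewhere (3.45 ± 0.77, adjusted p = 0.00147), and it too passed the filter only through mTEC-IV. Vmn1r43, with a peak in a long terminal repeat, held 16.7 and 12.2 against 0 to 2.04 (3.24 ± 0.70, adjusted p = 0.00115). Olfr1414 (25.4 and 38.6 against 0 to 6.11), Olfr995 (11.6 and 15.9 against 0 to 3.07), Olfr714 (12.3 and 11.1 against 0 to 3.05) and Olfr996 (32 and 15.9 against 0 to 9.16) were higher by 2.98 to 3.31, with adjusted p of 0.000532 to 0.00366.

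Weaker but graded differences were seen at genes open everywhere. Olfr1274-ps, a pseudogene whose peak lay in an L1 element (chr2:90235246-90235403), held 201 and 198 scaled tags in mTEC-IV and 62.8 to 93.3 in the other libraries (1.29 ± 0.15, adjusted p = 1.25e-06). Vmn2r87 held 102 and 102 in mTEC-IV and 43.8 to 85.3 elsewhere (0.74 ± 0.17, adjusted p = 0.00225). Both were lower in mTEC-I, by -0.66 ± 0.15 (adjusted p = 0.00152) and -0.77 ± 0.17 (adjusted p = 0.00177).

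The largest log2 difference among tested member genes was that of Olfr434, lower in mTEC-IV. Its peak lay 2833 bases downstream of the start (chr6:43169625-43169869), in a stretch of receptor genes between Tcaf1 and Arhgef5. It held 21.7 and 35.2 scaled tags in the mTEC-I libraries, 32.3 and 41.5 in those of mTEC-II, 11.7 and 12.2 in those of mTEC-III and 0 and 0 in those of mTEC-IV. With no read end in either mTEC-IV library, it was at least 31.5-fold lower there than in the mean of the other 6 (limma log2 difference -4.59 ± 0.41, adjusted p = 7.24e-08). It was also higher in mTEC-I (1.87 ± 0.41, adjusted p = 0.00146) and in mTEC-II (2.39 ± 0.41, adjusted p = 0.00117).

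Next to it, Olfr444 had a peak seen in mTEC-IV alone, with 15.2 and 7.41 scaled tags there and 0 in all 6 other libraries, which did not pass the filter. Summed with its second peak, the gene was higher in mTEC-IV (1.98 ± 0.53, adjusted p = 0.00649). The cluster of Olfr434 and Olfr444 spans 239 kb.

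Other genes lower in mTEC-IV included Olfr294 (-3.18 ± 0.48, adjusted p = 3.53e-05), Vmn1r192 (-3.15 ± 0.53, adjusted p = 0.000103) and Olfr97 (-1.50 ± 0.27, adjusted p = 0.000229). Olfr97 held 12.3 and 15.9 scaled tags in mTEC-IV against 32.3 to 59.9 elsewhere. Olfr297 was lower by -2.31 ± 0.59 (adjusted p = 0.00469), a call lost without mTEC-IV replicate 1 (adjusted p = 0.147). A peak assigned to Olfr267 at 48301 bases (chr4:58750147-58750436) was called in both directions and held 41.1 and 39 scaled tags in the mTEC-I libraries, 19.6 and 27.7 in those of mTEC-II, 10 and 14.3 in those of mTEC-III and 2.91 and 2.12 in those of mTEC-IV.

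Among genes lower in mTEC-I, Olfr996 (-3.10 ± 0.64, limma adjusted p = 0.000753) and Olfr920 (-2.69 ± 0.45, limma adjusted p = 0.000108) were also called higher in mTEC-IV (2.98 ± 0.64 and 2.72 ± 0.45). Olfr996, Olfr920, Olfr521 and Olfr49 passed the filter only through mTEC-IV, so their calls in mTEC-I add no support. Olfr920, with an intronic peak (chr9:38561955-38562169), held 0.887 and 1.62 scaled tags in the mTEC-I libraries, 8.06 and 10.8 in those of mTEC-II, 4.99 and 9.16 in those of mTEC-III and 34.1 and 38.1 in those of mTEC-IV. By contrast Olfr822 was low in mTEC-I alone, with 2.65 and 1.08 against 9.22 to 15.4 in the other 6 libraries (-2.35 ± 0.45, adjusted p = 0.00044). Olfr521 (-2.32), Olfr49 (-2.05), Olfr164 (-1.82), Vmn2r102 (-1.39) and Olfr987 (-1.14) were also lower, and of these the calls of Olfr49 (adjusted p = 0.134 without mTEC-I replicate 2), Olfr987 (adjusted p = 0.272 without mTEC-I replicate 1) and Vmn2r102 (adjusted p = 0.436 without mTEC-I replicate 1, and 0.0555 to 0.0753 without mTEC-II replicate 1 or either mTEC-IV library) depended on a library. With the authors' scaling the calls of Olfr987 and Vmn2r102 were lost (adjusted p = 0.111 and 0.100), and Vmn2r102 with DESeq2 (adjusted p = 0.0757). In the fit of single peaks, that of Olfr521 lost its call without either mTEC-I library (adjusted p = 0.0618 and 0.0528) and that of Olfr822 without mTEC-I replicate 2 (adjusted p = 0.0524).

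Peaks assigned to the same gene did not always move together. Of 22 genes with 2 or more tested peaks, Olfr295 and Olfr1402 had 1 peak higher in mTEC-I and another higher in mTEC-IV. Both Olfr295 peaks passed the filter only through the population in which they were high. The same held for the Olfr1402 peaks higher in mTEC-IV, so the p-values of these peaks add no support. In Olfr295 the peak 6687 bases upstream held 12.4 and 14.1 scaled tags in mTEC-I and at most 2.3 elsewhere, and the peak 3181 bases downstream, in an L1 element, held 10.9 and 16.9 in mTEC-IV and at most 1.16 elsewhere. Summed, Olfr295 was called higher in both populations (1.79 ± 0.55 and 1.95 ± 0.55) and lower in mTEC-III (-2.70 ± 0.55, adjusted p = 0.0064), the last lost without mTEC-III replicate 1 (adjusted p = 0.0554), with edgeR (adjusted p = 0.0507) and with DESeq2 (adjusted p = 0.164).

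In mTEC-II the only gene of the naming rule that was higher was Olfr429. It held 24.2 and 26.9 scaled tags in the mTEC-II libraries, 0.887 and 2.71 in those of mTEC-I, 6.67 and 10.19 in those of mTEC-III and 0 and 3.17 in those of mTEC-IV. The difference was 2.85 ± 0.59 (adjusted p = 0.00411), and the call was lost without either mTEC-II library (adjusted p = 0.0629 and 0.0651). Olfr155, of a chromosome 4 cluster, was high in mTEC-II (88.7 and 82.2) and mTEC-III (110 and 78.4) and low in mTEC-I (34.9 and 38.5) and mTEC-IV (38.5 and 39.1), with calls in all 4 populations. Its mTEC-III call was lost with the authors' scaling, and that of its peak at 5574 bases there (adjusted p = 0.487) and without mTEC-III replicate 1 (adjusted p = 0.212).

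High in tags were Vmn1r2 and Vmn1r238, vomeronasal type 1 receptor genes whose 12 assigned peaks lay near the first assembled bases of chromosomes 4 and 18, 81260 to 118964 bases from the gene's start. Of the 7 Vmn1r2 peaks, 4 were annotated as the satellite repeat GSAT. Summed, Vmn1r2 held 125 and 170.2 scaled tags in the mTEC-I libraries, 101 and 106 in those of mTEC-II, 403 and 214 in those of mTEC-III and 171 and 207 in those of mTEC-IV. It was called lower in mTEC-II (-0.94 ± 0.17, adjusted p = 0.00162) and higher in mTEC-III (1.05 ± 0.17, adjusted p = 0.00236).

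Without these 12 peaks, a set chosen after their values were seen, 2 member peaks were lower in mTEC-II and 4 higher in mTEC-III. All 12 had their highest mean in mTEC-III after TMM scaling, but as deposited 6 were highest in mTEC-I, 4 in mTEC-IV and 2 in mTEC-III. The higher call of Vmn1r2 in mTEC-III was lost with the authors' scaling (log2 difference 0.26, adjusted p = 0.259) and without mTEC-III replicate 1 (adjusted p = 0.0813). mTEC-III also had the lowest share of tags in peaks, and the part of this in the result was not tested.

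**Figure D5:**
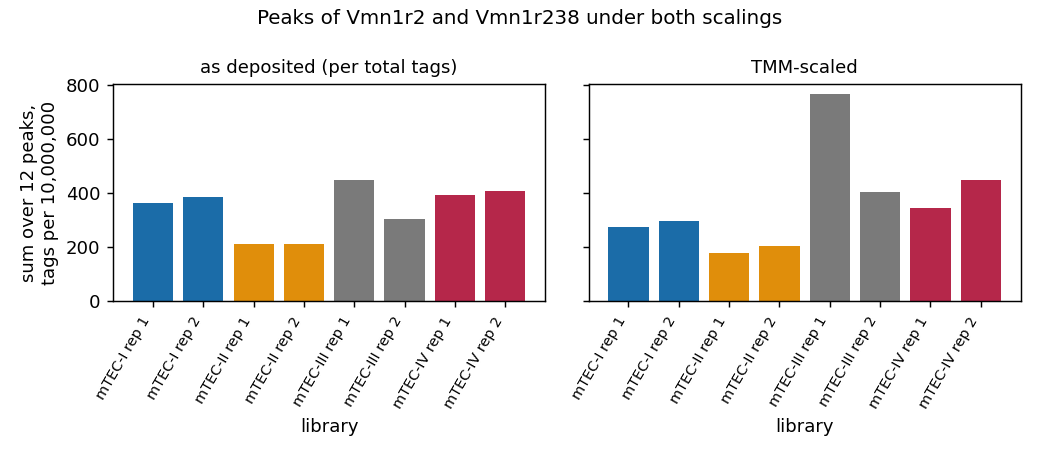
Tags per 10000000 summed over the 12 chromosome-end peaks of Vmn1r2 and Vmn1r238 in each library, as deposited (left) and after TMM scaling (right). As deposited the 2 mTEC-III libraries (447 and 303) stand on either side of mTEC-I and mTEC-IV, after scaling replicate 1 stands at 765 and replicate 2 at 403, and both mTEC-II libraries are lowest in both panels.

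A further gene called higher in mTEC-III was Vmn1r77, a vomeronasal type 1 receptor gene. It held 38.3 and 23.4 scaled tags in mTEC-III against 8.67 to 16.4 in the others (1.22 ± 0.36, adjusted p = 0.0422), a call lost with the authors' scaling (adjusted p = 0.272) and without any single library but mTEC-II replicate 2 or mTEC-III replicate 2 (adjusted p = 0.0551 to 0.312, the highest without mTEC-III replicate 1).

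Some of the receptor genes with the highest sums had a part of their peaks at tRNA genes. Olfr1423, among receptor genes between Osbp and Pfpl, had 7 peaks, of which 2 were annotated as tRNA genes. It held 107 and 77.5 scaled tags in the mTEC-I libraries, 169 and 194 in those of mTEC-II, 190.0 and 185 in those of mTEC-III and 97.3 and 138 in those of mTEC-IV, and was lower in mTEC-I (-0.78 ± 0.15, adjusted p = 0.000359). Olfr1368 had a peak at a glutamate tRNA gene and held 71.9 to 127 scaled tags across libraries. All 3 tRNA-annotated peaks were highest on average in mTEC-III.

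Olfr161, near the start of chromosome 16, had 6 peaks that ran as far as 476793 bases from its start. Its sum was 28.7 and 39 in the mTEC-I libraries, 24.2 and 45.3 in those of mTEC-II, 107 and 91.6 in those of mTEC-III and 162 and 126 in those of mTEC-IV, a difference of 1.56 ± 0.22 in mTEC-IV (adjusted p = 1.38e-05). The peak at 247220 bases held 38.5 and 28.6 scaled tags in mTEC-IV and 0.44 to 4.99 in all other libraries.

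Of the peaks near a start site, several were not called in any population. Vmn2r29, with a peak 2 bases from an annotated start (chr7:7230871-7231125), held 23 and 26 scaled tags in the mTEC-I libraries, 30 and 12.3 in those of mTEC-II, 15 and 36.7 in those of mTEC-III and 36.3 and 44.4 in those of mTEC-IV. RefSeq lists 2 promoter windows for this gene, of 62.3% GC with 23 CpG and of 38.3% GC with 0 CpG, and the peak was not matched to either. Olfr433 held 10.58 to 47.9 across libraries, with mTEC-III replicate 2 highest. Olfr94, with 2 peaks in its coding exon at 8.99 to 26.7 tags, Olfr15 (4.61 to 23.3) and Olfr1033 (3.7 to 18.4) were the others. These ranges span several-fold, and the missing calls do not show equal levels.

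The Taar genes, which apart from Taar1 serve as olfactory receptors for volatile amines, had 4 peaks across 191 kb of chromosome 10. Taar1, a receptor for trace amines in the brain, had a peak 8 bases before its start (chr10:23640089-23640319) with 12.8 and 15.7 scaled tags in the mTEC-I libraries, 10.37 and 3.07 in those of mTEC-II, 8.33 and 6.11 in those of mTEC-III and 2.91 and 1.05 in those of mTEC-IV. It was higher in mTEC-I (1.49 ± 0.53, adjusted p = 0.0342) and lower in mTEC-IV (-1.74 ± 0.53, adjusted p = 0.0161), the latter lost without mTEC-IV replicate 1 or 2 (adjusted p = 0.0521 and 0.234). Taar4 was higher in mTEC-I (12.4 and 11.9, 1.46 ± 0.53, adjusted p = 0.0347), though mTEC-III libraries held 15 and 9.16. Taar6 (8.15 to 28.3) was not called, and Taar9 (1.77 to 18.4) did not pass the filter.

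By family, 21 of 103 tested Olfr peaks were higher in mTEC-I and 25 in mTEC-IV (backgrounds over all peaks 18.1% and 17.5%), with 22 and 21 lower (backgrounds 19.3% and 18.4%). Of 22 Vmn1r peaks, mTEC-I was higher at 3 and lower at 2, and mTEC-IV higher at 2 and lower at 3. The Vmn1r peaks also gave 8 of the 10 lower in mTEC-II and 3 of the 7 higher in mTEC-III (backgrounds 3.54% and 2.42%), as many as the chromosome-start peaks, which are all of this family. Of 12 Vmn2r peaks, mTEC-I was higher at 0 and lower at 2, and mTEC-IV higher at 2 and lower at 0. The difference between families was not tested.

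The 171 peaks fell into 56 clusters when peaks less than 1 Mb apart were joined, and 22 clusters held 1 peak. The largest was that of chromosome 19 from Olfr1467 to Olfr1505, with 11 peaks over 882 kb, of which 9 were highest in mTEC-I and 2 in mTEC-IV. The second, on chromosome 17 from Olfr90 to Olfr107 beside the MHC, had 10 peaks over 322 kb, of which mTEC-I was highest at 5, mTEC-II at 2, mTEC-III at 1 and mTEC-IV at 2. The chromosome 16 cluster from Olfr161 to Olfr15 had 7 peaks, none of them highest in mTEC-I or mTEC-II.

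The authors' own peak lists, called in each library alone, gave a readout that does not use the merged values. Of the 171 member peaks, 87 and 81 were overlapped by a called peak in the mTEC-I libraries, 24 and 45 in those of mTEC-II, 20 and 27 in those of mTEC-III and 54 and 77 in those of mTEC-IV. Peaks in both lists of a population numbered 58 in mTEC-I (33.9%, against 43.9% of all merged peaks), 20 in mTEC-II (11.7%, against 21.8%), 14 in mTEC-III (8.19%, against 12.9%) and 44 in mTEC-IV (25.7%, against 33.5%). Peaks in both lists of a population and in no other list numbered 24 in mTEC-I (14%, against 13.6% of all), 20 in mTEC-IV (11.7%, against 8.18%), 1 in mTEC-II (0.585%, against 0.764%) and 0 in mTEC-III (against 0.0648%). A list from only 1 library supported 68 of the 171 (39.8%, against 34.6% of all), and 9 were in all 8 lists (5.26%, against 10.51%). The lists differed in length, from 10525 peaks in mTEC-III replicate 1 to 44288 in mTEC-I replicate 1.

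Single libraries stood apart at a few simple repeats. mTEC-IV replicate 2 held 38.6 scaled tags at an Olfr267 peak in a run of G, against 6.67 to 14.1 in the other 7 libraries, and 37 at a Vmn2r17 peak in a run of C, against 7.51 to 14.6. Neither peak was called.

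The genes that act with odorant receptors in olfactory neurons were open to different degrees. Of 25 olfactory signalling genes, 23 had a peak and 22 were tested, with 7 higher and 4 lower in mTEC-IV (backgrounds over all genes 19.3% and 13.6%), 4 higher and 6 lower in mTEC-I (17% and 18.6%), 5 higher and 1 lower in mTEC-II (4.83% and 5.75%) and 2 higher and 1 lower in mTEC-III (3% and 4.5%). These backgrounds hold for the gene lists that follow as well. Rtp1, which carries odorant receptors to the cell surface, held 148 and 121 scaled tags in the mTEC-I libraries, 111 and 124 in those of mTEC-II, 85 and 83.5 in those of mTEC-III and 20.3 and 21.7 in those of mTEC-IV (-2.33 ± 0.16 in mTEC-IV, adjusted p = 4.54e-09). Gng13, a G-protein gamma subunit of olfactory and taste cells, was higher in mTEC-IV (74.1 and 67.7 against 17.9 to 46.1, 1.16 ± 0.24, adjusted p = 0.000799), as was Gnal, the olfactory G-protein alpha subunit (0.82 ± 0.21, adjusted p = 0.00414).

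Cnga2, the subunit of the olfactory cyclic-nucleotide channel, was higher in mTEC-I (18.6 and 14.6 against 4.36 to 7.41, 1.42 ± 0.46, limma adjusted p = 0.0199). Cnga2 passed the filter only through mTEC-I, so this call adds no support wherever it is counted. Omp, the marker of mature olfactory neurons (38.6 to 69.1), and Adcy3, the adenylate cyclase of olfactory cilia (17.4 to 27.5), were not called in any population. Pde1c was lower in mTEC-IV (-1.11 ± 0.13, adjusted p = 2.4e-06), Pde2a higher there (1.29 ± 0.15, adjusted p = 1.77e-06), and Reep1, another receptor transporter, lower in mTEC-I (-1.24 ± 0.17, adjusted p = 1.12e-05).

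Of 21 regulators of odorant receptor choice, all had a peak and 20 were tested, with 5 higher and 1 lower in mTEC-I and 2 higher and 1 lower in mTEC-IV. Lbr, the lamin B receptor that holds heterochromatin at the nuclear envelope, was higher in mTEC-IV (0.997 ± 0.119, adjusted p = 2.16e-06). Lhx2 (35 to 70.3 scaled tags) and Ebf1 (73.2 to 123), which bind odorant receptor enhancers in neurons, were not called.

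Of 27 vomeronasal signalling genes, 18 had a peak and all 18 were tested, with 3 higher and 1 lower in mTEC-I and 3 higher and 1 lower in mTEC-IV. Trpc2, the channel of vomeronasal neurons, held 7.07 to 30 scaled tags and was not called. Plcb2, which is also a tuft and taste cell gene, was higher in mTEC-IV (66.8 and 71.4 against 16.7 to 38.9, 1.43 ± 0.25, adjusted p = 0.000161). Bcl11b, which is also a T cell gene, was higher in mTEC-I (1.06 ± 0.12, adjusted p = 1.81e-06).

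Markers of other cell types differed between the populations as well. Tuft cell markers moved with mTEC-IV, with summed levels of 1239 and 1263 scaled tags there and 485 to 567 in the other libraries. Of the 10 tested, 9 were higher, among them Trpm5 and Avil, which passed the filter only through mTEC-IV. Of 8 thymocyte markers 6 had a peak and 5 were tested, with 3 higher in mTEC-IV (Ptprc, Lck and Cd4) and 1 lower. Lck and Cd4 passed the filter only through mTEC-IV, so their calls add no support. The lower one was Bcl11b (-0.79 ± 0.12, limma adjusted p = 4.77e-05), and Cd3e was not called. Rag1 is listed at 0 in all 8 libraries although its merged peak came from a library's own list, so that value was not used. Cd4 held 24.7 and 18 scaled tags in mTEC-IV and at most 1.54 elsewhere. The summed thymocyte level was 291 to 299 in mTEC-I, 203 to 227 in mTEC-II, 143 to 166 in mTEC-III and 196 to 205 in mTEC-IV, of which Bcl11b alone made up 98 to 283.

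Of 4 B cell markers only Cd79a had a peak, with 28.3 and 25.4 scaled tags in mTEC-IV and 0 to 7.12 elsewhere. Of 5 myeloid markers 4 had a peak, with sums of 64.1 to 76.4 in mTEC-I, 119 to 129 in mTEC-II, 107 to 138 in mTEC-III and 92.2 to 107 in mTEC-IV, and 1 of 4 higher in mTEC-IV. Endothelial and mesenchymal markers moved with mTEC-I, where 3 of 4 and 2 of 4 were higher, with sums of 445 to 460 against 229 to 347 elsewhere and 237 to 250 against 113 to 163. Of 8 olfactory neuron markers 7 were tested, with 2 higher in mTEC-I and 2 in mTEC-IV and sums of 272 to 371, and of 5 vomeronasal neuron markers 1 was higher in mTEC-I, with sums of 348 to 489. The part of any of these cells in the receptor peaks was not tested, and in sorted bulk cells fewer open cells and less opening per cell cannot be told apart.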

How the data were processed

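ATAC-seq was made on 8 libraries, 2 from each of 4 sorted populations. The build was mm9 and the tools HOMER, Picard 1.108 and bcl2fastq 2.15.0.4, per the submitters' processing notes; the aligner is not given in the sources used here. Each library had its own peak calling by the authors, per the file headers (fragment length 300, FDR 0.001, 4-fold over the local 10000 bases). The deposited merged table gives a signal per peak and library, in tags per 10000000 total tags. The deposited peak lists also hold the caller's scores, fold ratios and p-values, which were not used.

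Deposited signal was scaled by TMM (divisors 0.585 to 1.32) and tested with limma 3.58.1 (R 4.3.3, trended variance) on log2(value + 1), over features for which 2 or more libraries reached 10 tags per 10000000, in a fit of all 8 libraries with no block. Peaks were summed per gene over all assigned peaks. As alternatives, other scalings, pseudocounts and filters, peaks within 10 kb, a replicate term and leaving out each library were run. In the deposited signal, 100% of values were whole read ends (tolerance 0.005 tags per 10000000). On these, edgeR 4.0.16 called 15184 of 65091 peaks higher and 12608 lower in mTEC-I, and 13785 and 11780 in mTEC-IV, and DESeq2 1.42.0 called 13699 and 9321 of 74086 in mTEC-I, and 11382 and 9764 in mTEC-IV. The libraries' own peak lists were intersected with the merged peaks by bedtools 2.31.1 (overlap of at least 1 base). The limma step was tested on simulated data.

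Named members were those called with both libraries beyond the other 6, up to 8 per population and direction; the 6 highest; the 4 with the most peaks; up to 12 peaks within 1 kb; all Taar genes; and the 3 largest clusters. Others named here (chromosome-start peaks, Olfr class I, motifs, Tle4, Olfr444, simple repeats, genes with split peaks) were chosen after their values were seen. Members and gene lists were chosen with earlier results of these data known. All 103 genes matched RefSeq by gene ID. GC content of peaks was not analysed here.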

Additional observations from a re-analysis of the deposited data

How the results depend on the processing

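With the authors' scaling to total tags, 14 member peaks were lower in mTEC-I, 6 lower in mTEC-II, 0 higher and 27 lower in mTEC-III, and 11 member genes were lower in mTEC-I and 0 higher and 32 lower in mTEC-III; the median of all peaks moved with it. A pseudocount of 0.5 gave 1 peak higher in mTEC-III (762 of all 58817). A pseudocount of 5 gave 21 peaks lower in mTEC-II (4652 of all), 11 higher and 6 lower in mTEC-III (2539 and 2211), and 9 genes lower in mTEC-II. In the main fit all peaks gave 2080 lower in mTEC-II and 1423 higher and 870 lower in mTEC-III, so all peaks moved with these settings. edgeR gave 8 peaks higher in mTEC-II (5377 of all 65091) and 12 higher and 0 lower in mTEC-III (3262 and 600 of all). DESeq2 gave 6 lower in mTEC-II (668 of all 74086) and 0 lower in mTEC-III (203 of all). Both tools gave 0 genes lower in mTEC-III. A filter on the mean gave 0 peaks lower in mTEC-III (872 of all 60069), and no filter or median-of-ratios scaling gave 2 genes. Within 10 kb, fewer peaks being summed, 7 genes were higher and 6 lower in mTEC-I, 1 lower in mTEC-II, 1 higher in mTEC-III, and 13 higher and 7 lower in mTEC-IV. Without the chromosome-start peaks, an alternative added after seeing the data, 2 peaks and 3 genes were lower in mTEC-II and 4 peaks higher in mTEC-III. Gene counts with no share over all genes here or above show only that the counts moved with the setting. Except where stated, the cause was not tested.

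Without 1 library, member peaks higher and lower numbered 1 to 25 and 8 to 31 in mTEC-I, 0 to 7 and 0 to 15 in mTEC-II, 0 to 10 and 0 to 7 in mTEC-III, and 4 to 31 and 10 to 29 in mTEC-IV. Member genes, in the same order of populations, numbered 2 to 17 and 12 to 25, 1 to 5 and 3 to 9, 1 to 6 and 1 to 5, and 5 to 27 and 6 to 17. Shares over all features are not set beside these ranges, so the ranges are no result about the members. No named call changed direction in any alternative run that could give it. Without an mTEC-I or mTEC-IV library only 58 to 61 of the 82 named calls had a value. Without either of their own libraries, none was given for the higher calls of Olfr536, Olfr107, Olfr543 and Olfr1120 in mTEC-I. The same held for those of Olfr157, Vmn2r85 and Olfr1500 in mTEC-IV, so these calls were not tested in this way. Of the named calls that each setting could give, 12 of 81 were lost with the authors' scaling, 7 of 82 with DESeq2, 3 of 82 with edgeR, 4 of 82 with a pseudocount of 0.5 and 0 to 15 without 1 library. Replicate numbers were not shown to pair libraries (correlations of deviations -0.014 to 0.033); with the replicate block 82 of 82 named calls held and no count moved beyond 1.5 times. With 2 libraries a group and few read ends per peak, small differences were not detectable.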
